A study of Mus musculus with 6 samples.

Results

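Mitochondrial protein import and quality control were followed through 49 genes, chosen by name from the protein-coding entries of a heart RNA-seq table of 27021 genes, of which 17089 were protein coding. The choice took every gene named *Timm* or *Tomm* with a number, together with named genes of the outer-membrane assembly machinery, the import motor, the processing peptidase, the matrix chaperones, the mitochondrial proteases and the prohibitins. No value of these hearts enters that rule, although it was drawn up with earlier results of these data known. Whole hearts were sequenced from 3 Immtfl/fl-Myh6-MCM mice and, as controls, from 3 Immt+/+-Myh6-MCM mice, each heart as its own library. *Immt* encodes Mic60, the central protein of the MICOS complex that holds the cristae junctions of the inner membrane, and its floxed allele came from a single embryonic stem cell clone. By their labels, both genotypes carried Myh6-MCM, a Cre recombinase that the cardiomyocyte promoter of *Myh6* drives and that tamoxifen activates. The counts of *Esr1* given below bear on that label. Both genotypes received tamoxifen 3 times at 6 weeks of age. Collection followed 20 weeks after tamoxifen, when the mice were 26 weeks old. The authors describe the Immtfl/fl-Myh6-MCM hearts as failing at that time, so heart failure and the deletion cannot be told apart here. By this design deletion is limited to cardiomyocytes, whereas the RNA came from every cell type of the heart.

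Nearly all mitochondrial proteins are made in the cytosol and imported as unfolded chains. The TOM complex receives them at the outer membrane, the SAM complex inserts barrel proteins there, small TIM chaperones ferry hydrophobic chains across the intermembrane space, and the TIM22 and TIM23 translocases insert proteins into the inner membrane or pass them to the matrix, where a motor built around the Hsp70 protein mortalin pulls them in, a peptidase removes their targeting sequence and chaperonins fold them. Proteases of the matrix and the inner membrane remove what fails to fold or assemble, and the Mic60 protein itself binds the SAM complex in a bridge between the membranes, so that the deleted gene borders on this machinery.

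Of the 49 genes, 48 passed the filter on low counts and were tested with edgeR's quasi-likelihood test over 17146 genes. A gene is called higher or lower, or said to have risen or fallen, when its Benjamini-Hochberg adjusted p is under 0.05, and a log2FC is the log2 ratio of Immtfl/fl-Myh6-MCM over control hearts. By this rule 16 genes were higher and 5 lower, and 27 did not pass. With upper-quartile in place of TMM scaling the split was 12 higher and 10 lower, beside a shift of -0.104 in the median log2FC of all tested genes. Across all tested genes 19.9% were higher and 18.5% lower, against 33.3% and 10.4% here. Among tested protein-coding genes, the class to which all 48 belong, 22.7% were higher and 19.6% lower. The median log2FC was 0.20 for the 48 genes, -0.00115 for all tested genes and 0.0171 for tested protein-coding genes. Past a 2-fold change, *Lonp1*, *Grpel2*, *Timm8a1* and *Hspa9* were higher and *Timm21* and *Tomm40l* lower, 4 and 2 of 48 genes, where 9.91% and 10.6% of all tested genes passed. The 2 genotypes did not overlap in 31 of the 48 genes, 20 higher and 11 lower in every Immtfl/fl-Myh6-MCM heart, beside 26.9% higher and 26.0% lower of all tested genes. Higher and lower calls both occurred in the TOM group, the TIM23 translocase and the import motor, as the plot of log2FC by role shows. In the other role groups every call was higher, or no gene passed. Each role group held few genes. The only higher calls of the TOM group and the TIM23 translocase, *Tomm20* and *Timm17a*, were lost in several of the alternative fits given below.

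**Figure D1:**
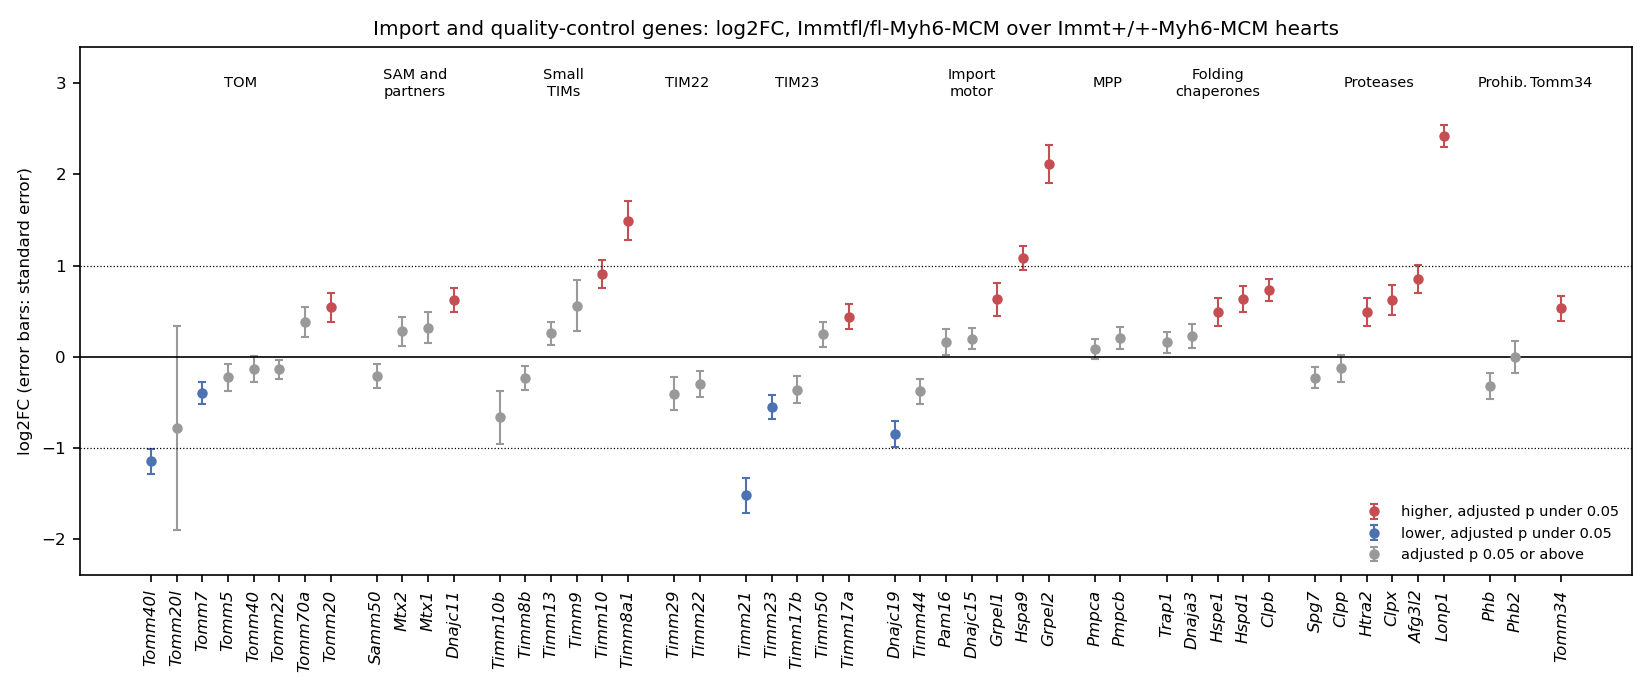
log2FC of each of the 48 tested genes with its SE (vertical bars), ordered by role and then by log2FC, with dotted lines at a log2FC of 1 and -1. Red points were higher and blue points lower at an adjusted p under 0.05, and *Lonp1* (2.42) and *Timm21* (-1.53) lie at the extremes.

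The promoters of 41 of the 49 genes were found in RefSeq (GRCm38.p6), each as 250 bases before to 50 after a transcription start. Printed here are the upstream bases of the gene with the largest rise, *Lonp1*, of its fellow matrix protease subunit *Clpx*, which rose less, of the import motor gene *Dnajc19*, which fell, and a stretch just upstream of the annotated start of *Hspe1*, whose gene overlaps the start of *Hspd1* on the opposite strand by 112 bases. Capitals mark matches, on either strand, to the letters of an NRF1 site (GCGCANGCG), a CCAAT box (CCAAT) or a heat-shock element (TTCNNGAA).
*Lonp1*, chr17:56626904-56627153, minus strand: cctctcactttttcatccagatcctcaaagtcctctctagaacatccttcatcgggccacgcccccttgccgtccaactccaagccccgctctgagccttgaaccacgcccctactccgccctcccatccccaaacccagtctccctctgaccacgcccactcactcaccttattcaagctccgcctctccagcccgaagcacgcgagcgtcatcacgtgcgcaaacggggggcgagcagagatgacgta
*Clpx*, chr9:65294010-65294259, plus strand: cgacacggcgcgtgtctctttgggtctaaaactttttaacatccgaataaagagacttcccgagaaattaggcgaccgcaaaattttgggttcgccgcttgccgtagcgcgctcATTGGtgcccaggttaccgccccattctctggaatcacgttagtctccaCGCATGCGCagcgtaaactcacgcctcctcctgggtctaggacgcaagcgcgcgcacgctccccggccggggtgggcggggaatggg
*Dnajc19*, chr3:34081355-34081604, minus strand: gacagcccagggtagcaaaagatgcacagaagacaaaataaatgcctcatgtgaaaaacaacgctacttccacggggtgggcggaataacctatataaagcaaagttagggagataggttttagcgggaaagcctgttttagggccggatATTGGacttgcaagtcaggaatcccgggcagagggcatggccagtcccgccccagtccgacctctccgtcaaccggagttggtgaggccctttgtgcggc
*Hspd1* and *Hspe1*, chr1:55088053-55088082, plus strand: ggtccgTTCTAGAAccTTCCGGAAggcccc

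The stretch upstream of *Hspe1* holds 2 matches to the heat-shock letters, the second of which overlaps a match to the ETS letters given next. These are counts of matches, not of separate elements. The stretch lies within the first exon of an annotated *Hspd1* transcript on the opposite strand. A gene was counted for a motif when any of its promoter windows held a match. Over the 41 genes, a heat-shock element was found in 9 (22.0%), beside 8.39% of 10883 tested protein-coding genes and 9.60% of all 27025 genes with a promoter. An NRF1 site was found in 9 (22.0%, beside 14.3% and 7.03%) and a CCAAT box in 14 (34.1%, beside 42.7% and 41.1%). The letters AAGGTCA, which are only a part of an ERR element, were found in 6 (14.6%, beside 4.02% and 5.38%). The letters of an ETS site (CCGGAAG), searched after the data were seen, were in 18 (43.9%, beside 18.7% and 9.93%). The ATF4 response element (TGATGNAA) was in 0 of the 41, beside 2.83% and 4.51%. These are matches of letters in a fixed window and not sites of binding.

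Several measures of the series bear on every value that follows. The level of *Immt*, in CPM (counts scaled to a common library size by TMM), was 663, 453 and 524 for controls and 23.0, 28.7 and 39.2 for Immtfl/fl-Myh6-MCM hearts. Library totals were 42301627 to 44151674 counts in control and 49793058 to 53251529 counts in Immtfl/fl-Myh6-MCM hearts, and mitochondrially encoded transcripts took 19.5 to 23.3% of control counts and 8.20 to 8.85% of the others. Counts assigned to *Esr1*, whose sequence is shared with the Myh6-MCM transgene, were 144479 to 165400 in control hearts and 71 to 323 in the Immtfl/fl-Myh6-MCM hearts. If they come from the transgene, its level and the deletion cannot be told apart here. Whether the Immtfl/fl-Myh6-MCM hearts carried the transgene that their label names was not tested. All 10 cardiomyocyte markers were detected, 8 of 10 were lower in the Immtfl/fl-Myh6-MCM hearts, and their summed level was 77500 to 82330 CPM in control and 33411 to 45809 CPM in Immtfl/fl-Myh6-MCM hearts. Of the markers of other cells, 1 of 6 endothelial genes was lower, 0 of 7 fibroblast and 0 of 6 macrophage genes passed, and 1 of 5 smooth muscle and pericyte genes was higher and 2 lower, with no marker at 0 in all hearts. In whole-heart RNA, fewer cells of a type and less RNA per cell cannot be told apart, and the part of these shifts in the import genes was not tested.

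Replicate 3 of the Immtfl/fl-Myh6-MCM hearts stood apart within its group. It was the highest of its 3 hearts in 32 of the 48 genes (66.7%), beside 39.2% of all tested genes, and in 12 of the 16 genes that were higher. With 11605 and 20811 counts of *Xist*, control replicate 3 and Immtfl/fl-Myh6-MCM replicate 3 were also the 2 hearts that expressed this transcript of the inactive X chromosome, against 4 to 16 counts in the others. Control replicate 3 was the highest control in 15 of the 48 genes (31.25%), and control replicate 1 in 23 (47.9%). Whether *Xist* status bears on these values was not tested. Without Immtfl/fl-Myh6-MCM replicate 3, 14 genes were higher and 9 lower, in place of 16 and 5, the added genes being *Phb*, *Samm50*, *Timm44* and *Tomm5* (log2FC -0.46, -0.33, -0.54 and -0.39). Without control replicate 3, 10 were higher and 4 lower.

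**Figure D2:**
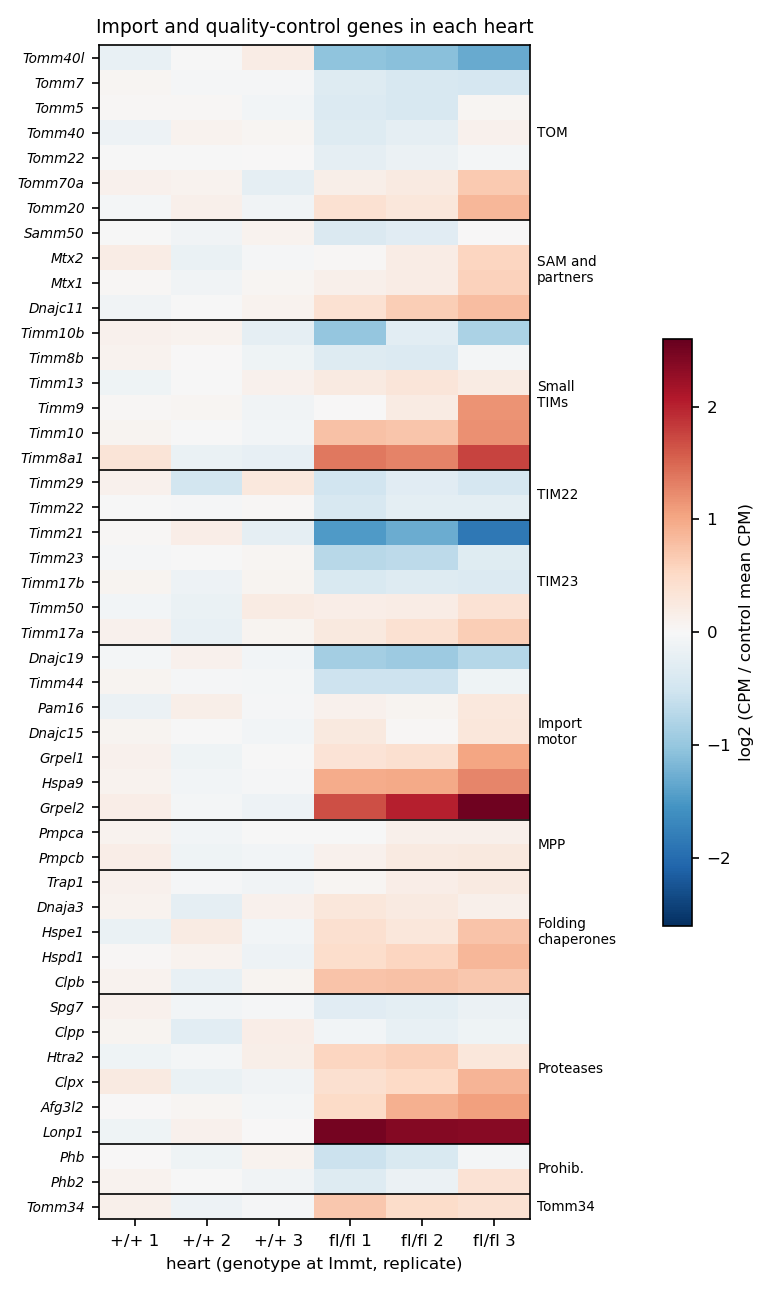
Each row is a gene and each column a heart, coloured by log2 of its CPM over the control mean, with red above and blue below, for all genes but *Tomm6* and *Tomm20l*, which had few or no counts. *Lonp1* and *Grpel2* are red and *Timm21* and *Tomm40l* blue in all 3 Immtfl/fl-Myh6-MCM hearts, and the third of these hearts has the darkest red in many rows.

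Among the 9 genes of the TOM complex and its receptors, 8 were tested, 1 rose and 2 fell. These are 12.5% and 25.0%, beside 19.9% higher and 18.5% lower of all tested genes. *Tomm20*, the receptor that recognises targeting sequences at the surface, rose by a log2FC of 0.54 (SE, the standard error of the log2FC, 0.163, adjusted p = 0.0265 from edgeR), from 61.8, 70.4 and 60.7 CPM to 84.3, 79.0 and 117 CPM. Its call was lost without control replicate 1 (log2FC 0.51, adjusted p = 0.0949 from edgeR) or control replicate 3 (0.50, 0.0986). The other main receptor, *Tomm70a*, which takes chains from cytosolic chaperones, had a log2FC of 0.38 and did not pass (adjusted p = 0.102 from edgeR), although its lowest Immtfl/fl-Myh6-MCM heart (128 CPM) was above its highest control heart (124 CPM).

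*Tomm40l*, at chr1:171216011-171222514, encodes a relative of the channel protein Tom40 and fell to 45.1% of the control mean. It was at 57.5, 65.9 and 75.1 CPM in control hearts and at 31.9, 31.1 and 26.6 CPM in the Immtfl/fl-Myh6-MCM hearts. The groups did not overlap, and the log2FC was -1.15 (SE 0.138, adjusted p = 2.49e-04 from edgeR). Of its exonic bases 64.3% overlap *Nr1i3*, a nuclear receptor gene on the opposite strand, whose counts were 4.26 to 5.90% of those of *Tomm40l* in the 6 hearts, and the strand setting of the counts is not given. The channel gene *Tomm40* did not pass, at 49.5, 57.9 and 56.2 CPM in control hearts and 43.5, 46.2 and 58.7 CPM in Immtfl/fl-Myh6-MCM hearts (log2FC -0.14, SE 0.142). Here the groups overlapped, with the third Immtfl/fl-Myh6-MCM heart above every control heart.

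*Tomm7*, a small subunit that loosens the complex and, in cultured human cells, holds the kinase PINK1 on damaged mitochondria, was at 33.7, 31.7 and 31.9 CPM in control and 25.7, 24.2 and 24.0 CPM in Immtfl/fl-Myh6-MCM hearts. The hearts within each genotype lay close together and the groups did not overlap (log2FC -0.40, SE 0.119, adjusted p = 0.026 from edgeR). The call was lost without control replicate 1 or 3 (adjusted p = 0.0916 and 0.0663 from edgeR) and without Immtfl/fl-Myh6-MCM replicate 1 or 2 (0.057 and 0.0819). The central receptor *Tomm22* and the small subunit *Tomm5* had log2FC of -0.14 and -0.23 and did not pass. *Tomm20l* had 0 to 32 counts per heart (adjusted p = 0.618 from edgeR), and *Tomm6*, with 0 to 6 counts, was below the filter. Of the exonic bases of *Tomm6*, 76.0% overlap another annotated gene. *Tomm34*, a cytosolic co-chaperone of Hsp70 and Hsp90 that bears a TOM name, rose from a mean of 22.9 ± 2.13 CPM (SD, n = 3) to 33.1 ± 3.62 CPM (SD, n = 3), a log2FC of 0.53, and lost its call without Immtfl/fl-Myh6-MCM replicate 1 (0.45, adjusted p = 0.0543 from edgeR) or control replicate 3 (0.52, 0.0573).

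In the SAM complex and its bridge to MICOS, 1 of 4 genes rose (25.0%, beside 19.9% of all tested genes) and none fell (beside 18.5%). *Dnajc11*, a J-domain protein of the bridge, rose from 61.9 ± 3.85 CPM (SD, n = 3) to 95.3 ± 13.6 CPM (SD, n = 3), with no overlap between genotypes (log2FC 0.62, SE 0.134, adjusted p = 0.00565 from edgeR). The barrel-inserting protein gene *Samm50* (log2FC -0.21) and the metaxin genes *Mtx1* (0.32) and *Mtx2* (0.28), which encode its outer-membrane partners, did not pass. The *Mtx1* groups did not overlap, with 14.98 to 16.6 CPM in control and 17.5 to 24.1 CPM in Immtfl/fl-Myh6-MCM hearts.

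The small TIM chaperones work as hexamers in the intermembrane space, where *Timm9* pairs with *Timm10* and *Timm8a1* or *Timm8b* with *Timm13*. Of the 6 genes, *Timm8a1* and *Timm10* rose (33.3%, beside 19.9% of all tested genes) and none fell (beside 18.5%). *Timm8a1*, at chrX:134537256-134541865, is the mouse counterpart of the human gene of deafness-dystonia syndrome. Control hearts had 10.2, 7.17 and 6.99 CPM and Immtfl/fl-Myh6-MCM hearts 21.1, 19.8 and 27.6 CPM. The genotypes were well apart, with 19.8 CPM in the lowest Immtfl/fl-Myh6-MCM heart and 10.2 CPM in the highest control heart, and the log2FC was 1.49 (SE 0.211, adjusted p = 6.19e-04 from edgeR). Its sister gene *Timm8b* was at 40.5, 38.5 and 35.5 CPM in control and 30.4, 29.9 and 37.0 CPM in Immtfl/fl-Myh6-MCM hearts, overlapped and did not pass (log2FC -0.23, adjusted p = 0.195 from edgeR).

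*Timm10* was at 21.5, 20.2 and 19.4 CPM in control hearts and 34.7, 33.7 and 46.3 CPM in Immtfl/fl-Myh6-MCM hearts. All 3 of the latter lay above all 3 controls (log2FC 0.91, SE 0.155, adjusted p = 0.00169 from edgeR). Its partner *Timm9* had 15.6, 17.8 and 34.7 CPM in the Immtfl/fl-Myh6-MCM hearts, against 14.5 to 16.02 CPM in controls, so that a single heart carried its log2FC of 0.56 (SE 0.283), which did not pass and was 0.12 without that heart. *Timm13* (log2FC 0.25) and *Timm10b* (-0.67, SE 0.290) did not pass, although neither overlapped between genotypes.

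The TIM22 translocase inserts carrier proteins such as the ATP/ADP exchanger into the inner membrane. Neither of its genes passed, the channel gene *Timm22* at a log2FC of -0.31 and *Timm29* at -0.41. *Timm22* did not overlap between genotypes, at 17.5 to 18.4 CPM in control and 13.5 to 15.04 CPM in Immtfl/fl-Myh6-MCM hearts.

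The TIM23 translocase, the main gate to the matrix, held the lowest log2FC of the 48 genes. Of its 5 genes, *Timm21* and *Timm23* fell (40.0%, beside 18.5% of all tested genes) and *Timm17a* rose (20.0%, beside 19.9%). *Timm21*, on chromosome 18, encodes the subunit that contacts the TOM complex and, in human cells, also accompanies newly imported respiratory chain subunits. It was at 33.1, 36.6 and 27.6 CPM in control hearts and 11.7, 13.2 and 8.89 CPM in Immtfl/fl-Myh6-MCM hearts. The highest of the latter was far below the lowest control, for a log2FC of -1.53 (SE 0.187, adjusted p = 2.85e-04 from edgeR). *Timm23*, the channel gene, was at 75.9, 76.8 and 80.0 CPM in control hearts and 47.1, 48.7 and 62.5 CPM in Immtfl/fl-Myh6-MCM hearts (log2FC -0.56, SE 0.135, adjusted p = 0.00997 from edgeR). The control hearts were within 5 CPM of each other, and the third Immtfl/fl-Myh6-MCM heart lay between its own group and the controls.

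*Timm17a* and *Timm17b* encode alternative forms of the subunit that forms the gate with Tim23. *Timm17a* rose, from 116, 94.2 and 113 CPM to 128, 142 and 167 CPM (log2FC 0.44, SE 0.140, adjusted p = 0.0336 from edgeR). *Timm17b*, on the X chromosome, was at 17.1, 14.9 and 17.2 CPM in control and 12.5, 13.0 and 12.8 CPM in Immtfl/fl-Myh6-MCM hearts, with no overlap, and did not pass (log2FC -0.36, adjusted p = 0.0829 from edgeR). The call of *Timm17a* was lost without any of the 6 libraries except Immtfl/fl-Myh6-MCM replicate 1, with log2FC of 0.33 to 0.49 and adjusted p of 0.0605 to 0.102 from edgeR. The receptor gene *Timm50* had a log2FC of 0.25 and did not pass.

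Within the import motor, 3 of 7 genes rose (42.9%, beside 19.9% of all tested genes) and 1 fell (14.3%, beside 18.5%). *Hspa9*, which encodes mortalin, the Hsp70 that drives the motor, was at 938, 846 and 865 CPM in control and 1724, 1750 and 2135 CPM in Immtfl/fl-Myh6-MCM hearts. Each of the latter was far above each control, and the log2FC was 1.08 (SE 0.134, adjusted p = 2.98e-04 from edgeR). Without Immtfl/fl-Myh6-MCM replicate 3 the log2FC was 0.98, under the 2-fold threshold, and so it was with upper-quartile scaling (0.98).

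Mortalin needs a nucleotide exchange factor, for which the genome holds *Grpel1* and *Grpel2*. *Grpel2*, on chromosome 18, was at 21.01, 18.1 and 17.2 CPM in control and at 59.9, 75.9 and 108 CPM in Immtfl/fl-Myh6-MCM hearts. Its rise of 4.33-fold (log2FC 2.12, SE 0.212, adjusted p = 1.10e-04 from edgeR) was the second largest of the 48 genes, and its Immtfl/fl-Myh6-MCM hearts were widely spread. *Grpel1* rose less, from 84.1, 71.8 and 76.4 CPM to 99.1, 103 and 157 CPM (log2FC 0.63, SE 0.181, adjusted p = 0.0222 from edgeR). Its log2FC was 0.39 without Immtfl/fl-Myh6-MCM replicate 3, and the call was lost without control replicate 2 (0.58, adjusted p = 0.0689 from edgeR) or control replicate 3 (0.62, 0.0755).

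*Dnajc19* and *Dnajc15* encode J-domain proteins that stimulate mortalin, and loss of *DNAJC19* in humans causes a dilated cardiomyopathy with ataxia. *Dnajc19* fell, from 25.6, 28.8 and 25.4 CPM to 14.4, 13.8 and 16.01 CPM (log2FC -0.85, SE 0.141, adjusted p = 0.00144 from edgeR). *Dnajc15* was at 61.8, 58.3 and 56.1 CPM in control and 70.4, 60.0 and 71.6 CPM in Immtfl/fl-Myh6-MCM hearts, and did not pass (log2FC 0.20, adjusted p = 0.219 from edgeR). The genotypes were thus separate for the first gene and overlapped for the second. A processed pseudogene named after *Dnajc19* had 5.03 to 8.25% of its counts, so that a share of its reads may be divided between the copies. *Pam16*, which holds the J proteins at the channel, had a log2FC of 0.16, and *Timm44*, which tethers mortalin there, -0.38 (adjusted p = 0.0588 from edgeR), and neither passed.

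The matrix processing peptidase cuts off targeting sequences and is a dimer of the *Pmpca* and *Pmpcb* products. *Pmpca* was at 174, 156 and 162 CPM in control and 164, 180 and 179 CPM in Immtfl/fl-Myh6-MCM hearts, and *Pmpcb* at 168, 137 and 141 CPM and 162, 174 and 177 CPM. Both overlapped between genotypes and neither passed (log2FC 0.09 and 0.20, SEs 0.110 and 0.121). With upper-quartile scaling the log2FC of *Pmpca* was -0.02.

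Of the 5 folding chaperones, 3 rose (60.0%, beside 19.9% of all tested genes) and none fell (beside 18.5%). *Hspd1* and *Hspe1*, which encode the chaperonin Hsp60 and its lid Hsp10 and share the stretch printed above, had log2FC of 0.63 (SE 0.141, adjusted p = 0.00659 from edgeR) and 0.49 (0.154, 0.0318). *Hspd1* went from 482 ± 37.4 to 749 ± 113 CPM (SD, n = 3 each) and *Hspe1* from 78.0 ± 10.6 to 110 ± 18.3 CPM (SD, n = 3 each), without overlap between genotypes. The call of *Hspe1* was lost without Immtfl/fl-Myh6-MCM replicate 3 (0.35, adjusted p = 0.0631 from edgeR), control replicate 1 (0.41, 0.126) or control replicate 3 (0.46, 0.111). The transcripts of both genes overlap by 112 bases at their starts, and a processed pseudogene named after *Hspd1* had 1.35 to 1.90% of its counts. *Clpb*, a disaggregase of the intermembrane space, rose from 80.9 ± 9.15 to 135 ± 3.5 CPM (SD, n = 3 each; log2FC 0.74, SE 0.121, adjusted p = 0.00143 from edgeR). *Trap1*, the mitochondrial Hsp90 (log2FC 0.16), and *Dnaja3*, a J-domain partner of mortalin (0.23), did not pass.

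The proteases included the largest change of the 48 genes. *Lonp1*, at chr17:56614297-56626887, encodes the ATP-dependent matrix protease that removes misfolded and oxidised proteins. It was at 150, 175 and 163 CPM in control hearts and at 919, 853 and 843 CPM in Immtfl/fl-Myh6-MCM hearts. The hearts of each genotype lay close together around a 5.36-fold difference (log2FC 2.42, SE 0.123, adjusted p = 2.62e-06 from edgeR), and the log2FC stayed between 2.32 and 2.47 in all 13 alternative fits. Of the 16 genes that rose, *Lonp1* and *Tomm34* were highest in Immtfl/fl-Myh6-MCM replicate 1.

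The other matrix protease is a barrel of ClpP fed by the unfoldase ClpX. *Clpx* rose, from 162, 123 and 130 CPM to 185, 198 and 255 CPM (log2FC 0.62, SE 0.161, adjusted p = 0.0137 from edgeR), a call that was lost without control replicate 3 (0.57, adjusted p = 0.0627 from edgeR). *Clpp*, the gene of the barrel itself, was at 30.6, 24.1 and 33.2 CPM in control and 27.9, 25.6 and 27.1 CPM in Immtfl/fl-Myh6-MCM hearts and did not pass (log2FC -0.13, adjusted p = 0.54 from edgeR). The Immtfl/fl-Myh6-MCM values of *Clpp* lay within the range of the controls.

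*Afg3l2* and *Spg7* encode subunits of the m-AAA protease, which faces the matrix from the inner membrane and also matures mitochondrial ribosomal proteins. *Afg3l2*, on chromosome 18, rose from 197, 205 and 189 CPM to 278, 376 and 415 CPM (log2FC 0.85, SE 0.155, adjusted p = 0.00235 from edgeR). *Spg7*, the gene of paraplegin, did not pass, at 109, 95.9 and 98.1 CPM in control and 82.8, 84.4 and 90.6 CPM in Immtfl/fl-Myh6-MCM hearts (log2FC -0.23, adjusted p = 0.132 from edgeR). Both genes separated the genotypes, in opposite directions. The related gene *Afg3l1*, outside the name rule, did not pass (log2FC 0.34, adjusted p = 0.0953 from edgeR). Without Immtfl/fl-Myh6-MCM replicate 1 the log2FC of *Afg3l2* was 1.02, past the 2-fold threshold. *Htra2*, a serine protease of the intermembrane space, rose from 18.1 ± 1.74 to 25.4 ± 2.94 CPM (SD, n = 3 each; log2FC 0.49, adjusted p = 0.0297 from edgeR), and lost its call without replicate 1 or 2 of either genotype (log2FC 0.43 to 0.47, adjusted p = 0.0741 to 0.111 from edgeR). Of its exonic bases 25.6% overlap another gene.

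The prohibitins form ring scaffolds in the inner membrane that surround the m-AAA protease. *Phb* was at 205, 187 and 216 CPM in control and 138, 154 and 195 CPM in Immtfl/fl-Myh6-MCM hearts (log2FC -0.32, adjusted p = 0.112 from edgeR), and *Phb2* at 159, 149 and 141 CPM and 118, 135 and 195 CPM (log2FC -0.00467, SE 0.179). Neither passed, and in both genes the third Immtfl/fl-Myh6-MCM heart was within or above the controls while the first was below them.

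**Figure D3:**
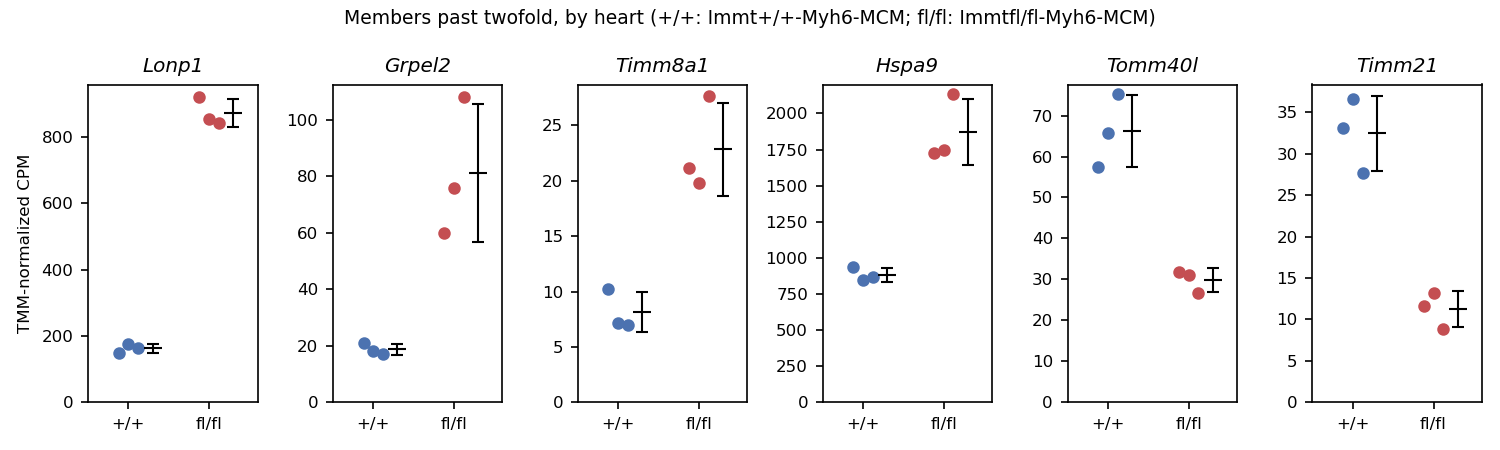
TMM-normalized CPM (linear axes from 0) in each heart for the 6 genes past a 2-fold change, with the mean and SD of the 3 hearts of each genotype beside the points. No gene overlaps between genotypes, and *Grpel2* has the widest relative spread among Immtfl/fl-Myh6-MCM hearts, from 59.9 to 108 CPM.

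Within a heart, the count ratio of 2 genes does not depend on library scaling, and 12 pairs of partners or alternative forms were compared in this way. In 9 pairs the ratios of the genotypes did not overlap. Taken singly, 26.9% of all tested genes did not overlap as higher and 26.0% as lower. The share among other pairs of genes was not computed, so 9 of 12 cannot be called particular to these pairs. A two-sided exact permutation test of 3 hearts against 3 cannot go below p = 0.1, which these 9 pairs reached (adjusted over the 12 pairs, p = 0.133), so none passed. The ratio of *Timm8a1* to *Timm8b* was 0.252, 0.186 and 0.197 in control hearts and 0.695, 0.660 and 0.746 in Immtfl/fl-Myh6-MCM hearts, 3.33 times higher. *Afg3l2* to *Spg7* went from 1.81, 2.14 and 1.92 to 3.35, 4.45 and 4.57, 2.09 times higher. In both pairs each Immtfl/fl-Myh6-MCM heart lay above each control heart.

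*Grpel1* to *Grpel2* moved the other way, from 4.0, 3.97 and 4.45 to 1.65, 1.36 and 1.45, 2.79 times lower, although both genes rose. *Dnajc15* to *Dnajc19* was 2.41, 2.02 and 2.21 in control and 4.88, 4.34 and 4.47 in Immtfl/fl-Myh6-MCM hearts, 2.06 times higher. *Tomm40* to *Tomm40l* was 0.860, 0.879 and 0.749 against 1.36, 1.49 and 2.20, 1.99 times higher. In the last pair the control hearts had more counts of *Tomm40l* and the Immtfl/fl-Myh6-MCM hearts more of *Tomm40*.

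*Timm17a* to *Timm17b* was 6.78, 6.31 and 6.54 in control and 10.3, 10.9 and 13.1 in Immtfl/fl-Myh6-MCM hearts, 1.74 times higher. *Clpp* to *Clpx* was 0.189, 0.195 and 0.256 against 0.150, 0.129 and 0.106, 1.66 times lower. Smaller shifts without overlap were seen for *Phb* to *Phb2*, 1.23 times lower, and *Pmpca* to *Pmpcb*, 1.09 times lower. The ratios overlapped for *Hspd1* to *Hspe1* (exact permutation p = 0.3), *Mtx1* to *Mtx2* (p = 0.8) and *Timm9* to *Timm10* (p = 0.2). The log2 ratio of *Hspd1* to *Hspe1* differed by 0.14 between genotypes, with SDs of 0.173 and 0.117 among 3 hearts each.

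**Figure D4:**
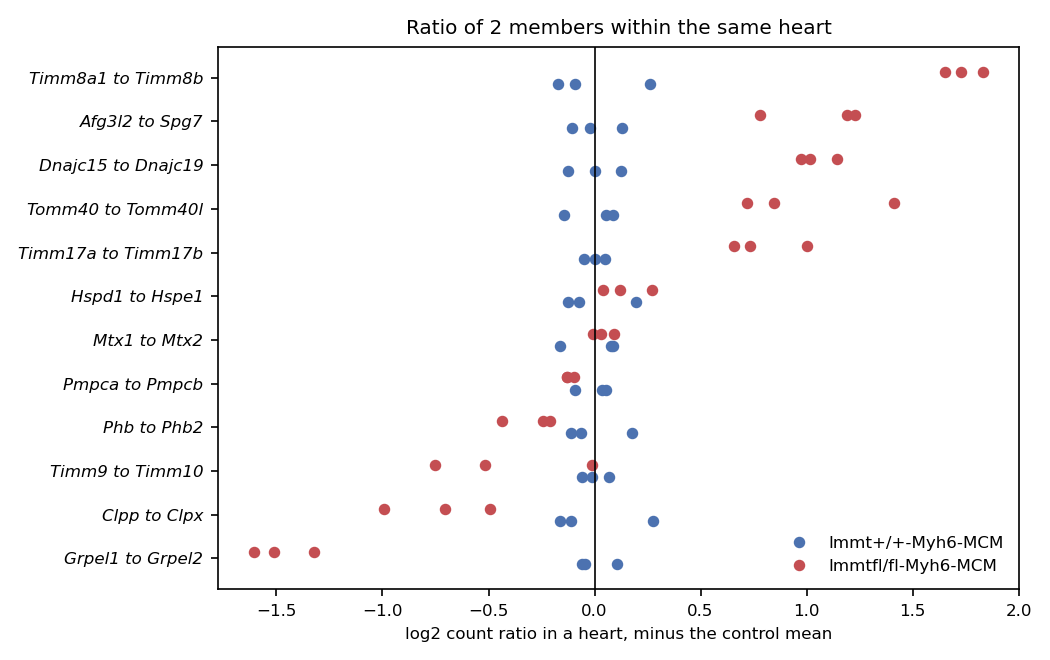
log2 count ratio of 2 genes in each heart, less the control mean of that ratio, for 12 pairs, with control hearts in blue and Immtfl/fl-Myh6-MCM hearts in red. The red points lie apart from the blue ones in 9 pairs, most widely for *Timm8a1* to *Timm8b* and *Grpel1* to *Grpel2*.

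Beyond the name rule, 28 further genes of import and quality control were counted, of which 4 were higher and 8 lower (14.3% and 28.6%, beside 19.9% and 18.5% of all tested genes), with a median log2FC of -0.04. The 3 with the largest log2FC were *Chchd4*, the oxidoreductase Mia40 that folds small TIM proteins (0.85, adjusted p = 0.00656 from edgeR), *Gfer*, the sulfhydryl oxidase that recharges it (0.66, 0.017), and *Dnlz*, which keeps mortalin soluble (0.63, 0.0108). *Chchd4* was at 22.5, 24.3 and 23.2 CPM in control and 33.4, 37.2 and 55.3 CPM in Immtfl/fl-Myh6-MCM hearts. The 3 with the smallest were *Immp1l*, a subunit of the inner-membrane peptidase (-1.24, 3.43e-04), *Oma1*, the stress-activated protease that cuts OPA1 (-0.99, 0.00176), and the ATPase *Afg1l* (-0.98, 0.00266). *Immp1l* went from 35.4, 29.5 and 29.99 CPM to 12.2, 15.6 and 12.4 CPM, with no overlap. *Gfer* and *Hscb* were the calls lost without replicate 2 of either genotype, which left 2 genes higher. The log2FC of *Gfer* was 0.62 and that of *Hscb* 0.59 without Immtfl/fl-Myh6-MCM replicate 2, and 0.62 and 0.56 without control replicate 2.

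Other groups that depend on import or share its chemistry moved differently. Of 38 nuclear genes named as complex I subunits, a group imported to be built into the respiratory chain, 0 were higher and 29 lower, with a median log2FC of -0.81. Of 77 genes named as mitochondrial ribosomal proteins, 9 were higher and 27 lower, with a median of -0.18. Lower calls made up 76.3% of the complex I genes and 35.1% of the ribosomal genes, beside 18.5% of all tested genes. Higher calls made up 0% and 11.7%, beside 19.9%. Both groups were taken by name alone, and whether each product belongs to the complex was not checked. They include *Ndufa4* (log2FC -0.85), *Ndufa4l2* (-0.62) and *Mrps36* (-1.58). All 8 genes of the cytosolic chaperonin, the folding machine of tubulin and actin, had a log2FC above 0, with a median of 0.56. Of them 5 passed (62.5%, beside 19.9% of all tested genes). The 48 import and quality-control genes lay between these groups in median and had the widest spread of the groups plotted, from -1.53 to 2.42. These counts and medians are descriptions, and the difference between groups was not tested.

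**Figure D5:**
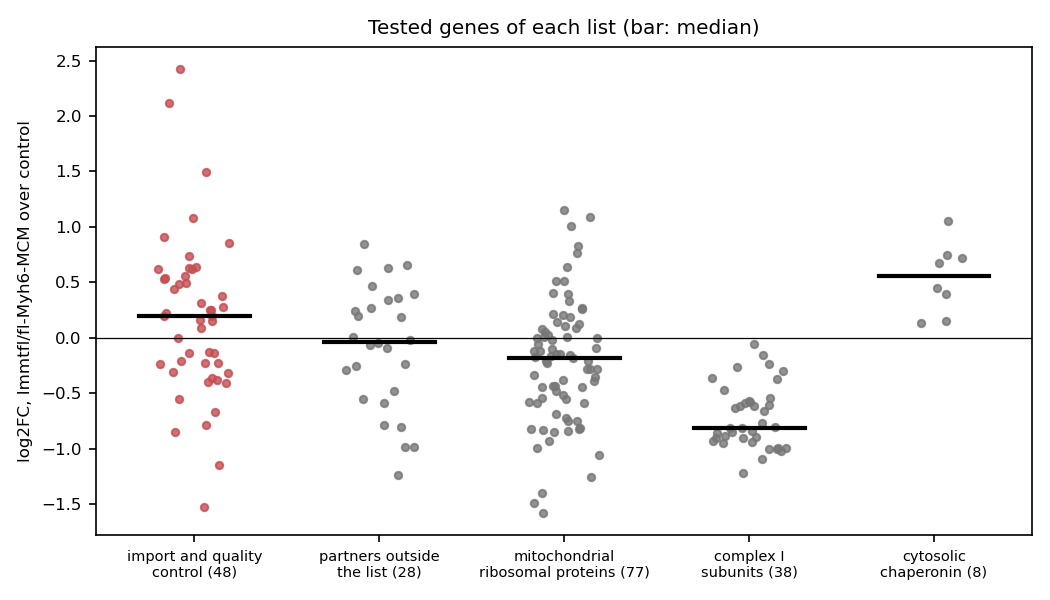
log2FC of each tested gene (points, spread sideways for legibility) in 5 groups, with the number tested in brackets and a bar at the median. The import and quality-control genes have a median of 0.20 and the genes named as complex I subunits one of -0.81.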

How the data were processed

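Bulk RNA-seq of 6 mouse hearts was analysed from the authors' table. Per the labels, mRNA was captured with oligo-dT primers that carry molecular identifiers, and tagmented. The submitters' processing notes name SAMtools 1.22.1, Subread 2.1.1 with featureCounts, STAR 2.7.11 and edgeR 4.0.16, and the builds mm10 and GRCm38. Which tool made which column, how strand was set and whether molecular identifiers were collapsed are not given in the sources. The authors deposited raw counts per gene, the input of every comparison here. The deposited signal values are counts divided by 1 size factor per library, with the authors' group means, and the deposited FPKM values are scaled by gene length and library size. The deposited log2 fold changes and the deposited p-values of the authors compare the same 2 groups. None of these other columns was used.

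Depth was 42301627 to 53251529 counts per heart. A count may thus be a read or a collapsed molecule. Each edgeR p-value weighs the difference between genotypes against the spread between these hearts, which is estimated with information shared across genes. Genes were filtered with filterByExpr (minimum count 10, minimum total 15), scaled by TMM and compared in R 4.3.3 with the robust quasi-likelihood test of edgeR 4.0.16, with Benjamini-Hochberg adjustment across 17146 genes. Standard errors were derived as the absolute log2FC over the root of the F statistic. The fit was tested on simulated data. Pair ratios used an exact permutation test. Of the 49 members, 46 have the same span in GENCODE M21, and the exons of 24 overlap another gene, for 5 over more than 20% of their bases. The members and lists were chosen with earlier results of these data known. Values in every heart are given for members past both thresholds, the 5 largest and 5 smallest log2FC past the adjusted p, pairs without overlap and *Immt*, and for partners the 3 largest and 3 smallest log2FC are named. Per-heart values of *Tomm20*, *Chchd4* and *Immp1l* and the naming of *Hscb* were added after the values were seen. Alternatives were RLE and upper-quartile factors, TMM without mitochondrially encoded genes, the Wald test of DESeq2 1.42.0, a block for the replicate number, no filter, a mean CPM of at least 1, and leaving out each library. No promoter sequence is printed for *Hspa9*, *Grpel2*, *Timm21* or *Afg3l2*.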

Additional observations from a re-analysis of the deposited data

How the results depend on the processing

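Of the 16 members that were higher, 9 were so in all 13 alternatives, and of the 5 that were lower, 4. The 7 others (*Clpx*, *Grpel1*, *Hspe1*, *Htra2*, *Timm17a*, *Tomm20* and *Tomm34*) and *Tomm7* lost their call in at least 1. Leaving out 1 library gave 10 to 15 members higher (10 without control replicate 3) and 4 to 9 lower (9 without Immtfl/fl-Myh6-MCM replicate 3), and 2 to 4 partner genes higher. Upper-quartile factors, under which the median log2FC over all genes shifts by -0.104, gave 12 higher and 10 lower, the added ones being *Phb*, *Spg7*, *Timm17b*, *Timm22* and *Timm44*. RLE factors and DESeq2 gave 16 and 5, with all calls shared.

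Deviations from the group mean had correlations of 0.0141, -0.0376 and 0.0141 between same-numbered hearts. These give no sign of pairing by replicate number but cannot exclude it, and *Xist* was expressed in replicate 3 of both genotypes. With the replicate number as a block, 12 members were higher and 4 lower, *Hspe1*, *Htra2*, *Timm17a*, *Tomm20* and *Tomm7* losing their call, and the pair ratios gave sign-flip p-values of 0.25 or more, the smallest that 3 pairs allow.

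Direction turned only for genes and ratios that had not passed. The log2FC of *Pmpca* was -0.0176 and that of *Atad1* -0.0928 with upper-quartile factors, and *Atad1* was at -0.00155 with a mean CPM of at least 1. *Phb2* was at 0.000723 with DESeq2 and 0.000119 with no filter. Leaving out 1 library gave -0.24 to 0.15 for *Phb2*, -1.22 to 0.40 for *Tomm20l*, -0.15 to 0.0310 for *Mtch2*, -0.0823 to 0.11 for *Atad1*, -0.0838 to 0.0833 for *Xpnpep3*, -0.15 to 0.0727 for *Fundc1* and -0.0433 to 0.0808 for the log2 ratio of *Mtx1* to *Mtx2*. The causes of these shifts were not tested. Counts of 0 to 32 limit *Tomm20l* and *Tomm6*.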
